A study of Homo sapiens with 4 samples.

Results

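The regions described here are broad domains of H3K27ac, the acetylation of lysine 27 on histone H3, in K562 cells. Peaks of the 3 deposited lists were merged where they shared 1 bp or more, which gave 33834 regions. Domains were chosen by peak width alone: a region was kept where each list held at least 1 single peak of 5000 bp or more. This gave 426 domains, which were 2.53% of the 16871 regions with a peak in every list. The rule used the peak widths, so all widths and edges below are descriptions and carry no test.

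K562 is a human erythroleukaemia line that carries the BCR-ABL fusion and can express embryonic and fetal globins. The cells carried TFAM-sh1 or TFAM-sh2, which are 2 shRNAs against TFAM, or shNT, a non-targeting shRNA. TFAM packages mitochondrial DNA and is needed for its transcription. Each condition was 1 library from cells grown in IMDM with serum, an input library was not analysed here, and no source used here says how the hairpins were delivered or whether the cells were pools or clones. No value has a replicate, no difference between libraries was tested, and widths are those of a cell population, so a change in the share of cells that carry the mark and a change in the mark per cell cannot be told apart. Shares carry exact Clopper-Pearson 95% intervals in brackets, which cover counting error only. The knockdown itself cannot be checked from these lists, since an shRNA acts on the transcript.

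Acetylation of H3K27 is placed mainly by the acetyltransferases p300 and CBP and marks active promoters and enhancers. Most marked sites are short and flank a nucleosome-depleted start site, while some stretches of chromatin carry the mark over many adjacent nucleosomes. Such broad domains have been described at genes for cell identity and at highly transcribed housekeeping genes, and reach from the start site into the gene body. In erythroid cells, GATA1 bound with TAL1 at GATA letters recruits coactivators at enhancers and promoters.

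The TFAM-sh1 list held 23819 peaks, the TFAM-sh2 list 27007 and the shNT list 23413, and no source used here gives the read depth. Single peaks of 5000 bp or more numbered 1315 in TFAM-sh1, 1701 in TFAM-sh2 and 1148 in shNT. The widest peak was 8781 bp in TFAM-sh1, 8841 bp in TFAM-sh2 and 8704 bp in shNT, so no domain can be wider than that in 1 peak, and stretches that would have been wider were not analysed here. Among 10 markers of K562 and erythroid cells, 5 had a promoter peak within 1 kb of the start site in every list, among them BCR, HBZ, LMO2 and TFRC. TAL1 had one in TFAM-sh1 and shNT, and GATA1, HBE1, HBG1 and HBG2 had none in any list. Of 12 markers of lymphoid, liver and nerve cells, 0 had one in every list, and only CD3D and CD79A had one at all, in TFAM-sh1.

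Sequences upstream of 3 start sites that the domains hold are given as examples of promoters rich in G+C. Each is the 200 bp before the start site in hg19, 5′ to 3′ on the strand of the gene, and overlaps no annotated exon. Capitals mark GGGCGG or its reverse complement CCGCCC, the letters of a GC box, which can bind the factor SP1. MYB encodes a transcription factor of blood progenitors, JUND a member of the AP-1 family and ZBTB7A a repressor of fetal globin genes.
MYB, chr6:135502246-135502445, plus strand: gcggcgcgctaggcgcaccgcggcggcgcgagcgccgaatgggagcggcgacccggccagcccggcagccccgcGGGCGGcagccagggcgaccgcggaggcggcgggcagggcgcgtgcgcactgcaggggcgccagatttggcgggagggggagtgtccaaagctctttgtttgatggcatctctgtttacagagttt
JUND, chr19:18392433-18392632, minus strand: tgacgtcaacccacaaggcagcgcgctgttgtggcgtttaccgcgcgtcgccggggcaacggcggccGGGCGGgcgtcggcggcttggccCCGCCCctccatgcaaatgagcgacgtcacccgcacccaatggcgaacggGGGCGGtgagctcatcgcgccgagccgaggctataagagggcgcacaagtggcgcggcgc
ZBTB7A, chr19:4066898-4067097, minus strand: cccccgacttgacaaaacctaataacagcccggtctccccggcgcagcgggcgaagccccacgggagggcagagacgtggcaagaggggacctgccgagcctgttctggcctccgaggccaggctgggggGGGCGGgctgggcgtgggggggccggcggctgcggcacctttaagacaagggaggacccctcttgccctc
These letters occurred on either strand within 200 bp upstream in 263 of the 374 start sites held by the domains, 70.3% (65.4 to 74.9), against 55.7% (55.0 to 56.4) of 19762 other coding start sites. The MYB stretch held 1 such match, the JUND stretch 3 and the ZBTB7A stretch 1. The SOCS2 stretch, also from a domain and not shown, held no such match and had 55% G+C. The 3 shown had 73% at MYB, 71.5% at JUND and 71% at ZBTB7A. Over the same window the median number of CpG was 19 in the domain set and 15 in the other start sites, and the median G+C was 68% in the domain set and 64.5% in the other start sites. The other start sites were counted whether or not they had a promoter peak, and marked ones alone were not compared. A match is a run of letters and not a binding site.

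Domains that hold no coding start site had a median G+C of 46.3% and a ratio of observed to expected CpG of 0.283, against 49.8% and 0.550 in domains that hold one. To show sequence rich in GATA letters from such domains, 200 bp stretches from 3 of them are given. They come from domains that hold no start site of a coding or lncRNA gene. The domains lie inside KIAA0513, near SERPINB1, and near TGFBR1 as the nearest coding gene, and the one near SERPINB1 holds the microRNA gene MIR4645. Each sequence is the stretch found with the most GATA letters in the part of its domain shared by the 3 peaks, outside annotated exons. The same search in domains with BX842679.1, SMYD3 and JARID2 as nearest coding genes gave stretches with 2 matches each, which are not shown. The 3 shown are thus the richer ones, and their G+C of 38.5%, 33.5% and 34.5% is below the median of such domains. Capitals mark the letters that GATA factors can bind, searched on both strands. They are GATAA or GATAG with A or T directly before, so that a match on the other strand reads TTATC or CTATC with T or A directly after.
near KIAA0513, chr16:85084824-85085023, plus strand: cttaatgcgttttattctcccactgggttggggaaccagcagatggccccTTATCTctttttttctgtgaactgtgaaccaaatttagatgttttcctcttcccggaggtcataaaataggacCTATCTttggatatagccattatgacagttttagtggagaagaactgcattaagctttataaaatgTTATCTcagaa
near SERPINB1, chr6:2859475-2859674, plus strand: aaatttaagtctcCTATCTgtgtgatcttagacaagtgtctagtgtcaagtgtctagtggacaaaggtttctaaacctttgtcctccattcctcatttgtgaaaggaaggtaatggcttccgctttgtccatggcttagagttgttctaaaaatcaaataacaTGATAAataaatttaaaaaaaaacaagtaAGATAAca
near TGFBR1, chr9:101839080-101839279, plus strand: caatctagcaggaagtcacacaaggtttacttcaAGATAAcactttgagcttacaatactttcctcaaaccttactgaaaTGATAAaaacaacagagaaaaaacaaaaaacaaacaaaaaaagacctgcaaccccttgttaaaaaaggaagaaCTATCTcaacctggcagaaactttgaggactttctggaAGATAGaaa
The KIAA0513 and SERPINB1 stretches hold 3 matches each and the TGFBR1 stretch 4. Such density was rare within the domains themselves. Of 4641 consecutive 200 bp stretches in domains without a coding start site, 29.4% held at least 1 match, 0.970% at least 3 and 0.0862% at least 4. In domains with a coding start site, 24.2% of 10003 stretches held at least 1 match, 0.930% at least 3 and 0.130% at least 4.

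Most domains were built around the start site of a gene. A coding start site, taken from the canonical transcript in GENCODE, lay in 294 of 426 domains, 69.0% (64.4 to 73.4), against 51.4% (50.7 to 52.2) of the 16445 other regions with a peak in every list. The share was 68.5% (64.98 to 71.9) in the 730 regions whose smallest width lay between 4000 and 5000 bp, which are the nearest regions by width, and 57.5% (53.8 to 61.3) in 690 regions with 5 kb in exactly 2 lists. Wider regions hold more sequence, and per Mb the domains held 126 coding start sites, against 189 in the other regions. In all, the domains held 374 coding start sites, 1.85% of 20162 genes, and 367 of these lay in the stretch shared by the 3 peaks.

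The domains often held more than 1 gene start. Of the 294 domains, 223 held 1 coding start site, 62 held 2 and 9 held 3, and 16.7% (13.3 to 20.6) of all domains held at least 2, against 13.3% (10.9 to 16.0) of the 4 to 5 kb regions, 13.2% (10.8 to 15.9) of the regions with 5 kb in exactly 2 lists and 7.30% (6.90 to 7.71) of the other regions. In 50 of the 62 domains with 2 start sites, 80.6% (68.6 to 89.6), the genes pointed away from each other, which was the case in 77.8% (67.8 to 85.9) of the 4 to 5 kb regions and 71.1% (68.3 to 73.7) of the others. SKA2 and PRR11, both with parts in mitosis, and MDC1 and TUBB, which encode a DNA damage mediator and a tubulin, are such neighbours. A lncRNA start site lay in 142 domains, 33.3% (28.9 to 38.0), against 30.3% (26.96 to 33.8) of the 4 to 5 kb regions, 28.3% (24.9 to 31.8) of the regions with 5 kb in exactly 2 lists and 17.8% (17.2 to 18.4) of the other regions.

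Some short genes lay whole within the mark, a count not made for other regions. In 25 of the 374 genes, 6.68% (4.37 to 9.71), the entire gene fitted in the stretch shared by all lists. They included FTL, the ferritin light chain, SRSF2, a splicing factor, PCBP1, an RNA-binding iron chaperone, OAZ1, which limits polyamine synthesis, JUND, IER2, an early-response gene, and 5 histone genes, H1-4, H2AC8, H2AC20, H2AC21 and H2BC21. Histone genes have near-identical copies, and the submitters kept uniquely aligned reads, so peaks there are less certain than elsewhere.

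MicroRNA genes were a further group. In 16 domains, 3.76% (2.16 to 6.03), lay 19 microRNA genes. At least 1 lay in 2.33% (1.36 to 3.70) of the 4 to 5 kb regions, 2.17% (1.22 to 3.56) of the regions with 5 kb in exactly 2 lists and 1.13% (0.975 to 1.30) of the other regions, so the intervals of the wide regions overlap. Of the 19, 13 matched an entry in the RefSeq table for GRCh38.p14, which gave 22 mature sequences with no seed in common. The largest group, the cluster of MIR99B, MIRLET7E and MIR125A, lies in the SPACA6 domain (chr19:52190624-52196630), and the pair MIR191 and MIR425 lies at DALRD3 and NDUFAF3 (chr3:49054544-49060978). Their mature forms are shown with bases 2 to 8, the seed that pairs with target transcripts, in capitals.
hsa-let-7e-5p: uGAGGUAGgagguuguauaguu
hsa-miR-99b-5p: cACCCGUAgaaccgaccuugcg
hsa-miR-125a-5p: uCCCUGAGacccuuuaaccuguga
hsa-miR-191-5p: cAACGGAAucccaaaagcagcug
The cluster domain spanned 5523 bp in TFAM-sh1, 5765 bp in TFAM-sh2 and 5067 bp in shNT. At DALRD3 and NDUFAF3 the peak spanned 6435 bp in TFAM-sh1, 6221 bp in TFAM-sh2 and 5596 bp in shNT. Both were wider in each hairpin library than in shNT, by less than the 1.25-fold used below to call a width. The miR-22 host gene MIR22HG, a lncRNA, had 6985 bp in TFAM-sh1, 5943 bp in TFAM-sh2 and 5717 bp in shNT.

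Domains without a coding start site numbered 132. Of these, 34 held a lncRNA start site and 92 held no start site of any annotated gene, which is 21.6% (17.8 to 25.8) of all domains, against 24.1% (21.0 to 27.4) of the 4 to 5 kb regions and 40.6% (39.8 to 41.3) of the other regions. They overlapped a coding or lncRNA gene in 106 cases, and the median distance to a coding start site was 27667 bp. Within 10 kb of one lay 28, and 28 lay beyond 100 kb. The domain inside KIAA0513 (chr16:85078376-85086974) spanned 7552 bp in TFAM-sh1, 8504 bp in TFAM-sh2 and 7741 bp in shNT. A domain inside SMYD3, which encodes a lysine methyltransferase, lay 349323 bp from the start site of that gene and spanned 7558 bp in TFAM-sh1, 7142 bp in TFAM-sh2 and 8073 bp in shNT. Each library thus held a broad peak inside these genes and away from their canonical start sites. With the start sites of all basic transcripts in GENCODE, 308 of the 426 domains, 72.3%, held a coding start site.

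Domain sequence had about the G+C of the nearest regions by width. The median was 48.6% in the domains (quartiles 44.3 and 54.5), 48.8% in the 4 to 5 kb regions, 48.0% in the regions with 5 kb in exactly 2 lists and 50.6% in the other regions. With a coding start site the median was 49.8% in domains, 49.96% in the 4 to 5 kb regions and 53.5% in the other regions. It was 50.07% in the regions with 5 kb in exactly 2 lists. The ratio of observed to expected CpG was 0.550 in domains, 0.591 in the 4 to 5 kb regions and 0.632 in the other regions. In the regions with 5 kb in exactly 2 lists it was 0.528. Around the 223 single start sites the median G+C was 69.2% in the 250 bp after the start site and between 43.2% and 46.4% at distances beyond 2 kb. GATA letters occurred at a median of 1.57 per kb in domains, 1.55 per kb in the 4 to 5 kb regions and 1.41 per kb in the other regions. The regions with 5 kb in exactly 2 lists had 1.67 per kb, so the density is not particular to the domains. In those without a coding start site the densities were 1.89 per kb in domains (quartiles 1.23 and 2.55) and 1.79 per kb in the other regions (quartiles 0.999 and 2.64). These quartile ranges overlap widely. The density was 1.97 per kb in such 4 to 5 kb regions and 2.04 per kb in such regions with 5 kb in exactly 2 lists. Upstream of start sites the comparison was with all 19762 other coding start sites, marked or not, and not with the other regions. GATA letters lay in the 200 bp before 7.75% (5.25 to 10.9) of the start sites in domains and 13.0% (12.5 to 13.5) of those others.

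**Figure D1:**
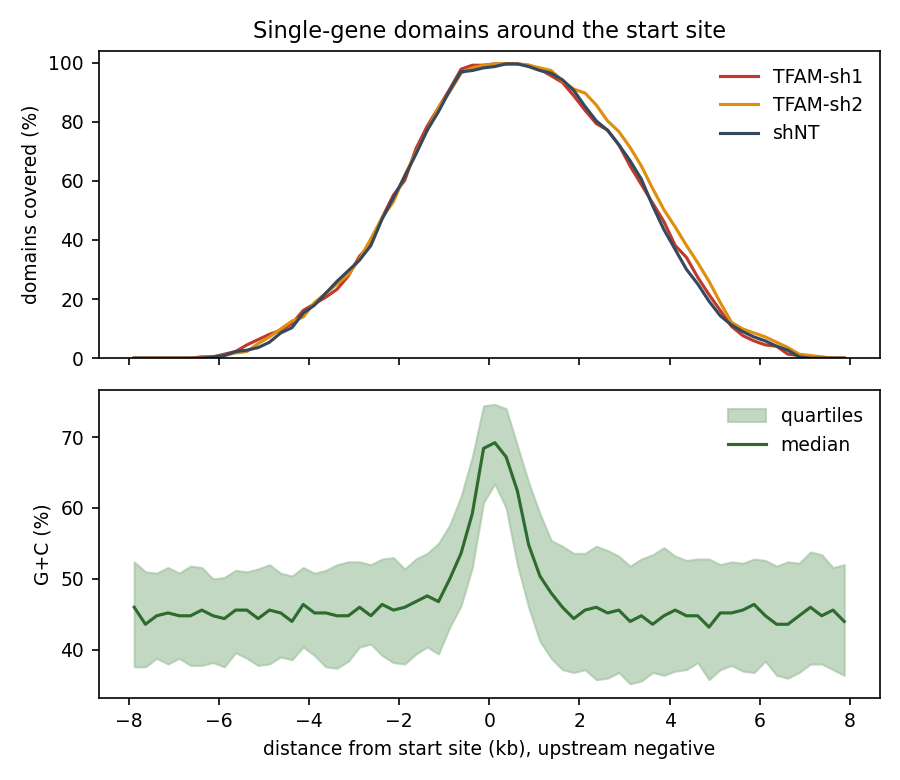
Position of the 223 domains with exactly 1 coding start site. The upper panel gives the share of domains covered by the widest peak of each library in bins of 250 bp by distance from the start site in kb, and the lower panel the median and quartiles of G+C. Coverage extends farther downstream than upstream in all 3 libraries, and G+C peaks at 69.2% just after the start site.

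The edges had a direction relative to the gene. In the 223 domains with 1 coding start site, the upstream edge lay at a median of 2305 bp from the start site in TFAM-sh1, 2248 bp in TFAM-sh2 and 2315 bp in shNT. The downstream edge lay at 3776 bp in TFAM-sh1, 3883 bp in TFAM-sh2 and 3684 bp in shNT. The peak reached farther downstream in 68.2% (61.6 to 74.2) of them in TFAM-sh1, 71.3% (64.9 to 77.1) in TFAM-sh2 and 69.1% (62.5 to 75.1) in shNT. The other regions showed the same bias at shorter reach, with 73.3% in TFAM-sh1, 79.1% in TFAM-sh2 and 72.6% in shNT. In 145 domains every library reached farther downstream, in 56 every library reached farther upstream, and in 220 the start site lay inside the peak of every list.

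Downstream edges mostly fell within the gene. The edge, taken at the median of the 3 libraries, lay in the first intron in 134 of 223 domains, 60.1% (53.3 to 66.6), in a later intron in 60, in a later exon in 13 and past the end of the transcript in 11. The genes were of similar length to others, with a median of 37142 bp against 35369 bp for the genes of other single-gene regions. At KDM5B, an H3K4 demethylase, the peak reached little upstream. Its upstream edge was at 435 bp in TFAM-sh1, 491 bp in TFAM-sh2 and 289 bp in shNT. Its downstream edge was at 5409 bp in TFAM-sh1, 5537 bp in TFAM-sh2 and 5816 bp in shNT. TFRC, the transferrin receptor that brings iron into erythroid cells, had downstream edges at 4892 bp in TFAM-sh1, 5748 bp in TFAM-sh2 and 5917 bp in shNT. Both domains reached mainly into the gene. The opposite was seen at ZNF367, a zinc finger gene, whose upstream edge was at 3413 bp in TFAM-sh1, 3413 bp in TFAM-sh2 and 3468 bp in shNT and whose downstream edge was at 1786 bp in TFAM-sh1, 1852 bp in TFAM-sh2 and 1825 bp in shNT. ZFP36L1, an mRNA decay factor, had upstream edges at 5421 bp in TFAM-sh1, 5062 bp in TFAM-sh2 and 5240 bp in shNT. In ZNF367 and ZFP36L1 the mark lay mainly before the start site in every library.

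**Figure D2:**
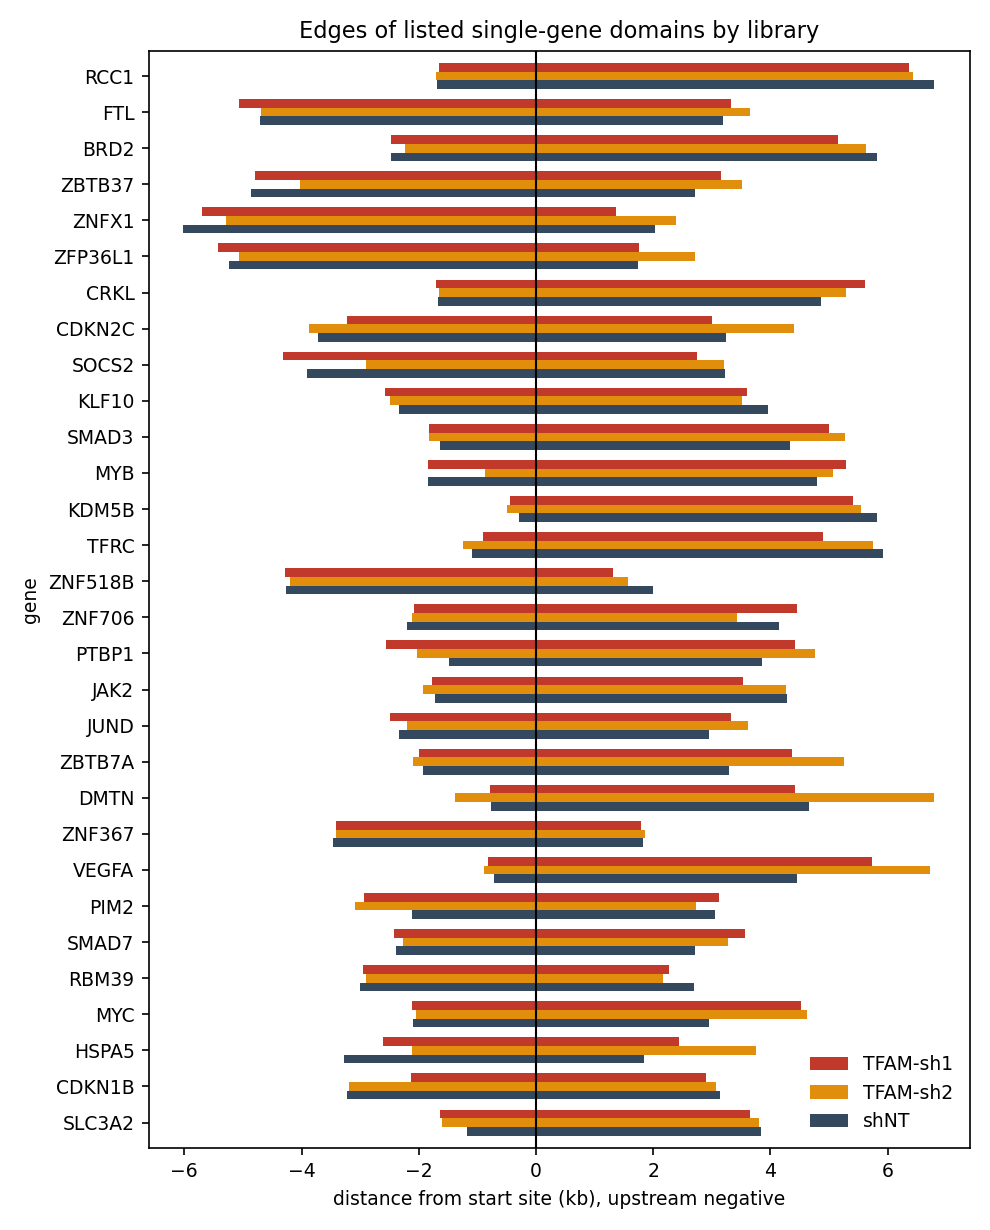
Edges of the widest peak in each library for 30 single-gene domains that belong to the gene lists, ordered by their smallest width; RCC1, ZBTB37 and ZNFX1 stand for the noncoding hosts beside them. Bars run from the upstream to the downstream edge in kb from the start site at 0; most bars extend farther to the right, and ZNF367 and ZFP36L1 extend farther to the left in all 3 libraries.

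Edges differed modestly between libraries. Over the 852 edges the median absolute difference was 275 bp between TFAM-sh1 and shNT, 290 bp between TFAM-sh2 and shNT and 267 bp between the hairpins, so the hairpins stood about as far from each other as from shNT. Within 200 bp lay 39.3% of edges for TFAM-sh1 against shNT, 39.4% for TFAM-sh2 against shNT and 40.3% between the hairpins, and in the other regions the shares were 46.2% for TFAM-sh1 against shNT, 45.4% for TFAM-sh2 against shNT and 46.0% between the hairpins. The stretch shared by the 3 peaks had a median of 5478 bp and was 5000 bp or more in 359 domains. The base pairs shared by all lists were a median of 82.8% of those in any list, against 79.0% in the 4 to 5 kb regions and 66.2% in the other regions, and wider peaks have more base pairs that can be shared. The best shared were DLGAP1-AS1, an antisense lncRNA, and UBE2D2, a ubiquitin-conjugating enzyme, with 5828 bp in TFAM-sh1, 5870 bp in TFAM-sh2 and 5897 bp in shNT. At RCOR3, of the CoREST corepressor family, the peaks spanned 5065 bp in TFAM-sh1, 5153 bp in TFAM-sh2 and 5024 bp in shNT. In 2 domains, near LCTL and near ACTN4, the peaks of TFAM-sh1 and shNT shared no base pair and were joined through the wider peak of TFAM-sh2.

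G+C changed across the edges, by little. In the 500 bp inside the edges the median was 45.2% in each library, and in the 500 bp outside it was 42.8% in TFAM-sh1, 43.8% in TFAM-sh2 and 45% in shNT. It was higher inside at 61.5% (58.1 to 64.8) of edges in TFAM-sh1, 56.7% (53.3 to 60.0) in TFAM-sh2 and 52.9% (49.5 to 56.3) in shNT. The 4 to 5 kb regions had the same order, with 61.5% in TFAM-sh1, 56.7% in TFAM-sh2 and 52.9% in shNT, so the order of the libraries is not particular to the domains. In the other regions it was higher inside at 67.5% of edges in TFAM-sh1, 63.9% in TFAM-sh2 and 61.2% in shNT.

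Widths were close across the libraries. The median was 6118 bp in TFAM-sh1, 6228 bp in TFAM-sh2 and 6028 bp in shNT, and 422 domains were a single peak in every list. Of the domains, 198 had a smallest width below 5500 bp, 125 had 6000 bp or more and 30 had 7000 bp or more. The median log2 width ratio was 0.01 for TFAM-sh1 over shNT (quartiles -0.10 and 0.13) and 0.04 for TFAM-sh2 over shNT (quartiles -0.07 and 0.17). TFAM-sh1 was wider than shNT in 230 domains, 54.0%, against a background of 55.2% of all regions with a peak in every list. TFAM-sh2 was wider in 250 domains, 58.7%, against a background of 63.5%. Both hairpins were wider in 187 domains, 43.9% (39.1 to 48.8) against 42.5% of the other regions, both narrower in 132 and on opposite sides of shNT in 105. These shares lie close to or below those of all regions, and the rule used these widths, so they say nothing particular to the domains.

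**Figure D3:**
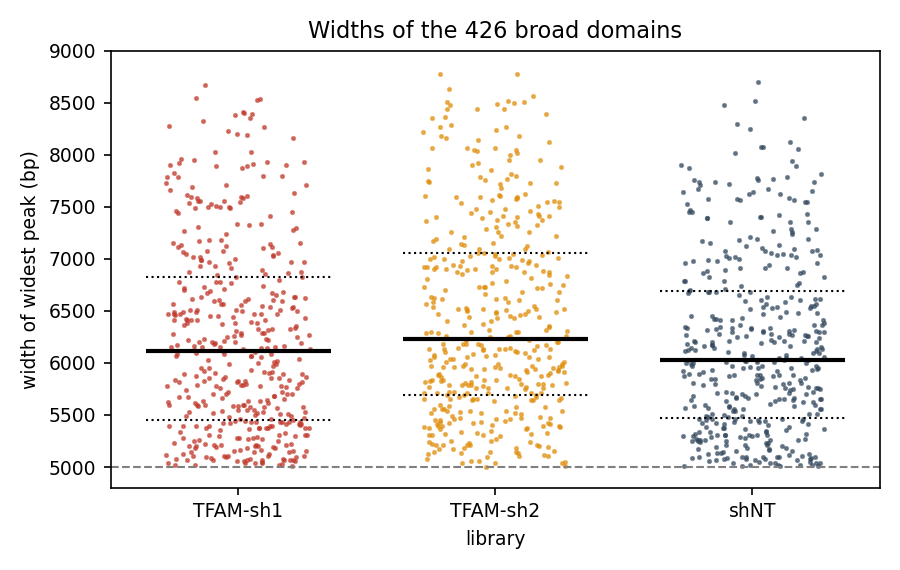
Width in bp of the widest peak in each of the 426 domains by library. Each point is 1 domain, the thick line is the median, the dotted lines are the quartiles, and the dashed line is the minimum of 5000 bp set by the rule. The medians are 6118 bp in TFAM-sh1, 6228 bp in TFAM-sh2 and 6028 bp in shNT, and the points of the 3 libraries cover the same range.

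Large width differences were few. A width at least 1.25-fold larger than in shNT was seen in 31 domains for TFAM-sh1 (7.28%, background 25.1%) and in 42 for TFAM-sh2 (9.86%, background 31.1%). A width at least 1.25-fold smaller was seen in 24 for TFAM-sh1 (5.63%, background 18.9%) and in 13 for TFAM-sh2 (3.05%, background 12.6%). The rule removes regions that fall below 5000 bp in any list, which lowers these counts by construction. Downstream edges at least 500 bp farther out than in shNT were found in 38 of 223 domains for TFAM-sh1 (17.0%, background 11.3%) and in 62 for TFAM-sh2 (27.8%, background 19.4%). At least 500 bp farther in lay 38 downstream edges for TFAM-sh1 (17.0%, background 9.85%) and 21 for TFAM-sh2 (9.42%, background 4.14%). Upstream, 31 edges for TFAM-sh1 (13.9%, background 8.97%) and 28 for TFAM-sh2 (12.6%, background 8.1%) lay at least 500 bp farther out, while 25 for TFAM-sh1 (11.2%, background 4.78%) and 13 for TFAM-sh2 (5.83%, background 5.08%) lay as far in. Over all shifts, the downstream edge lay farther out than in shNT in 50.7% of domains for TFAM-sh1 (background 53.7%) and 55.6% for TFAM-sh2 (background 68.6%), and the upstream edge in 58.7% for TFAM-sh1 (background 55.2%) and 45.7% for TFAM-sh2 (background 50.3%). A shift of 500 bp is a smaller part of a wide peak than of a narrow one. The median shift was 42 bp outward upstream and 3 bp outward downstream in TFAM-sh1, and 19 bp inward upstream and 53 bp outward downstream in TFAM-sh2.

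For each hairpin, the domains with the largest width ratio over shNT were taken among those wider in both hairpins, so the other hairpin may differ little from shNT. VEGFA, a secreted growth factor for blood vessels and a gene of the integrated stress response list, had 6541 bp in TFAM-sh1, 7598 bp in TFAM-sh2 and 5184 bp in shNT. Its upstream edge was at 811 bp in TFAM-sh1, 879 bp in TFAM-sh2 and 722 bp in shNT, and its downstream edge at 5729 bp in TFAM-sh1, 6718 bp in TFAM-sh2 and 4461 bp in shNT, so the libraries differed on the gene body side. SLC22A4, a carnitine and ergothioneine transporter, had 6822 bp in TFAM-sh1, 7610 bp in TFAM-sh2 and 5051 bp in shNT, and its downstream edge was at 5012 bp in TFAM-sh1, 5221 bp in TFAM-sh2 and 3070 bp in shNT. MARCHF6, a ubiquitin ligase of the endoplasmic reticulum, had 7890 bp in TFAM-sh1, 5372 bp in TFAM-sh2 and 5305 bp in shNT, so that TFAM-sh2 hardly differed from shNT. A domain inside FADS2, a fatty acid desaturase, had 6731 bp in TFAM-sh1, 8263 bp in TFAM-sh2 and 5095 bp in shNT. The domain shared by C21orf58 and PCNT, the centrosomal protein pericentrin, had 6870 bp in TFAM-sh1, 8779 bp in TFAM-sh2 and 5497 bp in shNT. Without a start site were the domains 11712 bp from the start site of BLOC1S4 and 45893 bp from that of C1orf100. Another lay inside ITPR1, 158530 bp from the nearest coding start site, that of BHLHE40. Each had its largest width in TFAM-sh1.

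The domains with the smallest ratio for each hairpin were taken among those narrower in both, and several were narrow mainly in TFAM-sh1. At SRSF2, which shares a divergent promoter with MFSD11, the peak spanned 5075 bp in TFAM-sh1, 5472 bp in TFAM-sh2 and 7740 bp in shNT. Its score percentile was 91.6 in TFAM-sh1, 82.7 in TFAM-sh2 and 33.5 in shNT, so the narrower peaks ranked higher. HNRNPF, another splicing regulator, had 6511 bp in TFAM-sh1, 5058 bp in TFAM-sh2 and 7079 bp in shNT. BMPR1A, a receptor for bone morphogenetic proteins, had 5122 bp in TFAM-sh1, 7732 bp in TFAM-sh2 and 8252 bp in shNT, with the difference of TFAM-sh1 on the upstream side, at 2203 bp in TFAM-sh1, 4700 bp in TFAM-sh2 and 4665 bp in shNT. At BMPR1A it was thus TFAM-sh1 that stood apart. RABGGTB, which prenylates Rab proteins, had 5083 bp in TFAM-sh1, 7737 bp in TFAM-sh2 and 7814 bp in shNT. The domain of ARID4B, a chromatin protein, and GGPS1, an isoprenoid enzyme, had 5013 bp in TFAM-sh1, 7313 bp in TFAM-sh2 and 7432 bp in shNT. The RABGGTB and ARID4B domains were much narrower in TFAM-sh1 and close to shNT in TFAM-sh2. The SKA2 and PRR11 domain had 5894 bp in TFAM-sh1, 5110 bp in TFAM-sh2 and 7243 bp in shNT. These domains were named for their width ratios, so the values are descriptions of 1 library each.

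Of the 12 domains with the largest smallest width, 7 are given here. DLGAP1-AS1 had 8526 bp in TFAM-sh1, 8562 bp in TFAM-sh2 and 8519 bp in shNT. RCC1, the exchange factor of Ran, with the snoRNA host SNHG3, had 8030 bp in TFAM-sh1, 8138 bp in TFAM-sh2 and 8478 bp in shNT (chr1:28830852-28839340). FTL had 8388 bp in TFAM-sh1, 8354 bp in TFAM-sh2 and 7901 bp in shNT (chr19:49463504-49472221). The order of the libraries was a different one in each of these 3 domains. PRAME, a tumour antigen expressed in leukaemia, had 8265 bp in TFAM-sh1, 8361 bp in TFAM-sh2 and 7742 bp in shNT (chr22:22894740-22903100). BRD2, a reader of acetylated histones, had 7631 bp in TFAM-sh1, 7880 bp in TFAM-sh2 and 8295 bp in shNT, and was the widest chromatin regulator of the lists. FSCN1, which bundles actin, had 8204 bp in TFAM-sh1, 8394 bp in TFAM-sh2 and 7575 bp in shNT, and FLNC, which cross-links it, had 7609 bp in TFAM-sh1, 8218 bp in TFAM-sh2 and 7586 bp in shNT. The hairpins were both wider than shNT at DLGAP1-AS1, FTL, PRAME, FSCN1 and FLNC and both narrower at RCC1 and BRD2. Just inside the threshold lay the GART and SON domain, with 5057 bp in TFAM-sh1, 5008 bp in TFAM-sh2 and 5113 bp in shNT, and just outside it GAPDH, the glycolytic enzyme, with 5245 bp in TFAM-sh1, 5449 bp in TFAM-sh2 and 4998 bp in shNT.

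Gene lists were compared by the share of their members whose start site lay in a domain, beside 1.85% of all coding genes and 3.68% (3.32 to 4.07) of the 10156 coding genes with a promoter peak in every list. The list shares count all annotated members, marked or not. For them 1.85% is the like background, while 3.68% counts marked genes alone. The lists were drawn up with earlier results of these data known and got no test. Highest were the noncoding RNA host genes with 5 of 19, 26.3% (9.15 to 51.2), the splicing and RNA-binding factors with 6 of 24, 25% (9.77 to 46.7), and the BCR-ABL and cytokine signalling genes with 5 of 22, 22.7% (7.82 to 45.4). The noncoding hosts have no like background here, since both backgrounds are shares of coding genes. Of these hosts, SNHG3, GAS5 and ZFAS1 lie in the domains of the coding genes RCC1, ZBTB37 and ZNFX1. None of 86 cytosolic ribosomal proteins lay in a domain (upper limit 4.20%), although 76 had a promoter peak in every list. The lists for translation factors, glycolysis, the TCA cycle, mitochondrial DNA expression and other lineages had none either, of 12 to 20 genes each, and such short lists allow shares of up to 26.5%. In between lay the immediate early genes with 4 of 28, the MYC and cell cycle genes with 3 of 22 and the SKI, SMAD and ID genes with 2 of 17. The integrated stress response had 2 of 18, heme and iron 2 of 22, erythroid transcription factors 2 of 25 and chromatin regulators 2 of 28. Chaperones had 1 of 20 and the globins and red cell membrane 1 of 24. Their intervals hold 1.85%, except that those of the immediate early genes start at 4.03% and those of the MYC and cell cycle genes at 2.91%. All but the immediate early genes also hold 3.68%. Of 515 genes with a ZNF symbol, 6 lay in a domain, 1.17% (0.429 to 2.52), and of 69 histone genes 6 did, 8.70% (3.26 to 18.0). The lists differed in how many members had a promoter peak in every list. It was 21 of the 69 histone genes, 8 of the 17 SKI, SMAD and ID genes and 12 of the 25 erythroid factors. It was 16 of the 22 BCR-ABL and cytokine genes, so the order of the lists depends on the genes counted.

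**Figure D4:**
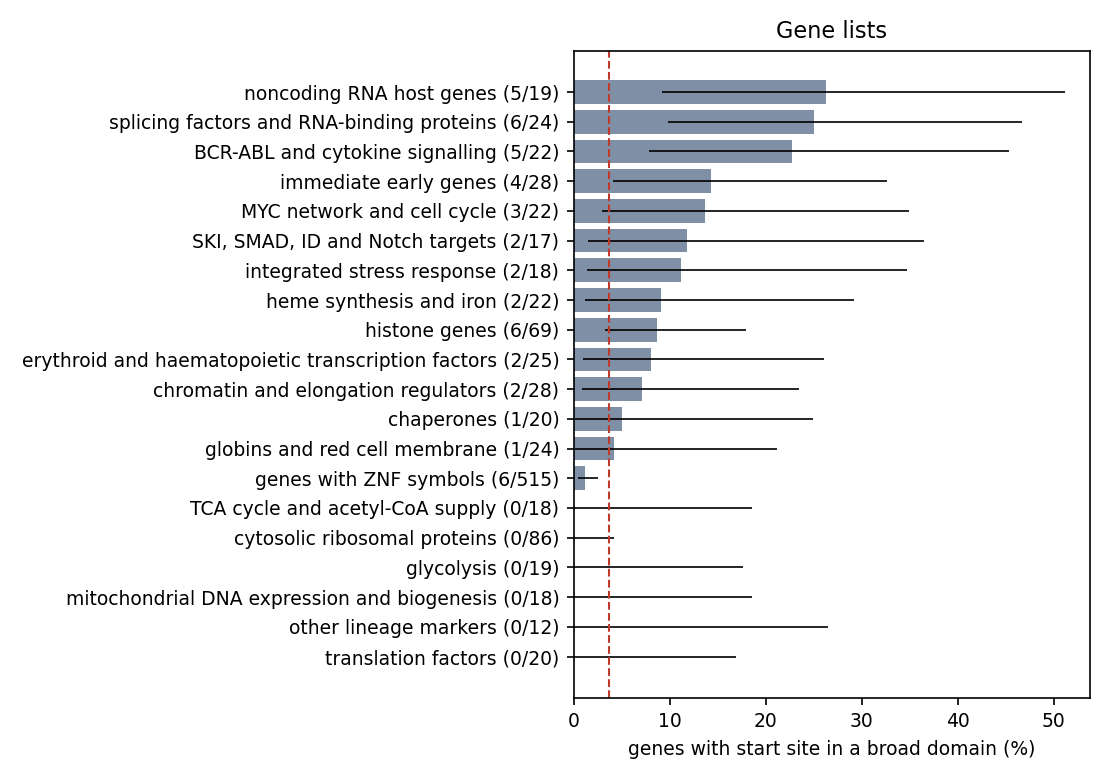
Share in percent of the genes of each list whose start site lies in a broad domain. Bars are shares with exact 95% intervals, and numbers in brackets are genes in domains over annotated genes. The dashed line marks the 3.68% of coding genes with a promoter peak in every list, whereas the bars count all annotated genes, marked or not. Noncoding RNA hosts, splicing factors and BCR-ABL and cytokine genes have the highest shares, with wide intervals, and 6 lists have none.

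The signalling genes in domains encode an adaptor, kinases and inhibitors of the BCR-ABL and cytokine pathways. CRKL, an adaptor phosphorylated by BCR-ABL, had 7321 bp in TFAM-sh1, 6940 bp in TFAM-sh2 and 6526 bp in shNT (chr22:21269981-21277301). JAK2, the kinase of cytokine receptors, had 5296 bp in TFAM-sh1, 6184 bp in TFAM-sh2 and 6010 bp in shNT, and SOCS2, which feeds back on that kinase, had 7053 bp in TFAM-sh1, 6104 bp in TFAM-sh2 and 7126 bp in shNT. PIM2, a survival kinase, had 6065 bp in TFAM-sh1, 5812 bp in TFAM-sh2 and 5176 bp in shNT, and SPRY2, an inhibitor of growth factor signalling, had 5037 bp in TFAM-sh1, 5188 bp in TFAM-sh2 and 5374 bp in shNT. CRKL and PIM2 were wider in both hairpins than in shNT, SPRY2 and SOCS2 were narrower in both, while JAK2 was narrower in TFAM-sh1 alone.

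Of the RNA-binding factors, PTBP1, a splicing repressor, had 6969 bp in TFAM-sh1, 6784 bp in TFAM-sh2 and 5340 bp in shNT. HNRNPA2B1, next to CBX3, had 5528 bp in TFAM-sh1, 7442 bp in TFAM-sh2 and 7756 bp in shNT, and HNRNPK had 5210 bp in TFAM-sh1, 5105 bp in TFAM-sh2 and 5969 bp in shNT. RBM39 had 5226 bp in TFAM-sh1, 5078 bp in TFAM-sh2 and 5699 bp in shNT. All of these but PTBP1 were narrower in both hairpins than in shNT, as were SRSF2 and, by little, SON, while 31.0% of all domains were narrower in both. At HNRNPK, RBM39 and SON the difference was below 1.25-fold in each hairpin, and at HNRNPA2B1 it was so in TFAM-sh2. SRSF2 was named above for its width ratio. The snoRNA hosts GAS5, at ZBTB37, with 7958 bp in TFAM-sh1, 7541 bp in TFAM-sh2 and 7577 bp in shNT, and ZFAS1, at ZNFX1, with 7071 bp in TFAM-sh1, 7679 bp in TFAM-sh2 and 8060 bp in shNT, share their promoters with those coding genes. SNHG16 completed that list, with 5104 bp in TFAM-sh1, 6010 bp in TFAM-sh2 and 5927 bp in shNT.

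Regulators of growth and blood formation were represented by single genes. MYC, the growth regulator, had 6626 bp in TFAM-sh1, 6678 bp in TFAM-sh2 and 5043 bp in shNT, so it was wider in both hairpins. The cell cycle inhibitor CDKN1B had 5041 bp in TFAM-sh1, 6262 bp in TFAM-sh2 and 6369 bp in shNT. CDKN2C, another, had 6226 bp in TFAM-sh1, 8272 bp in TFAM-sh2 and 6965 bp in shNT. TFAM-sh1 was the narrowest library at both inhibitors. MYB had 7122 bp in TFAM-sh1, 5941 bp in TFAM-sh2 and 6635 bp in shNT (chr6:135500604-135507732), and the upstream edge was at 1835 bp in TFAM-sh1, 870 bp in TFAM-sh2 and 1842 bp in shNT. ZBTB7A had 6356 bp in TFAM-sh1, 7354 bp in TFAM-sh2 and 5213 bp in shNT (chr19:4061647-4069000), wider in both hairpins. DMTN, the dematin of the red cell skeleton, had 5204 bp in TFAM-sh1, 8184 bp in TFAM-sh2 and 5439 bp in shNT, so TFAM-sh2 alone was wider. SMAD3 and SMAD7, which transmit and inhibit TGF-beta signals, were wider in both hairpins by less than 1.25-fold, with 6827 bp in TFAM-sh1, 7094 bp in TFAM-sh2 and 5970 bp in shNT at SMAD3 and 5992 bp in TFAM-sh1, 5540 bp in TFAM-sh2 and 5101 bp in shNT at SMAD7. SMAD2, which fell outside the rule, had 6386 bp in TFAM-sh1, 4579 bp in TFAM-sh2 and 5921 bp in shNT, so it was narrower in TFAM-sh2. HSPA5, the chaperone BiP, had 5042 bp in TFAM-sh1, 5871 bp in TFAM-sh2 and 5131 bp in shNT, and SLC3A2, an amino acid transporter subunit, had 5278 bp in TFAM-sh1, 5396 bp in TFAM-sh2 and 5021 bp in shNT.

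Several erythroid genes were broad in 2 lists and fell outside the rule, a count made after the values were seen. Over all genes, 494 of 20162 coding start sites lay in regions with 5 kb in exactly 2 lists. Among other lists, these regions held 10 of 69 histone genes, of which 6 had no peak in the remaining list, 3 of 20 translation factors, 3 of 18 stress response genes and 3 of 19 glycolysis genes, so the erythroid lists are not alone in this. Of the 25 erythroid transcription factors, MYB and ZBTB7A lay in domains, and TAL1, IKZF1, ZFPM1 and CBFA2T3 had 5 kb peaks in 2 lists and no peak at all in the third. TAL1, the erythroid partner of GATA1, had 5523 bp in TFAM-sh1 and 5929 bp in shNT and no peak in TFAM-sh2. IKZF1 had 7801 bp in TFAM-sh1 and 7094 bp in shNT, and ZFPM1, the cofactor FOG1, had 6578 bp in TFAM-sh1 and 5997 bp in shNT, again with none in TFAM-sh2. CBFA2T3, a corepressor in the TAL1 complex, had 7780 bp in TFAM-sh2 and 7577 bp in shNT and none in TFAM-sh1. Among the red cell genes, GYPC, a glycophorin, had 7034 bp in TFAM-sh1 and 6366 bp in shNT and RHAG 6144 bp in TFAM-sh1 and 8322 bp in shNT, each with no peak in TFAM-sh2.

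A peak was missing from a list more often at 1 to 2 kb and at 7 to 8 kb than at 3 to 4 kb. Of the 690 regions with 5 kb in exactly 2 lists, 170 had no peak in the remaining one, namely 51 of 260 in TFAM-sh1, 74 of 158 in TFAM-sh2 and 45 of 272 in shNT. Where the smaller width of the other lists was 1 to 2 kb, a peak was missing from TFAM-sh1 in 13.2% (12.4 to 14.0) of regions, from TFAM-sh2 in 7.13% (6.51 to 7.78) and from shNT in 10.7% (9.97 to 11.5). At 3 to 4 kb it was missing from TFAM-sh1 in 3.64%, from TFAM-sh2 in 3.47% and from shNT in 1.59%. Where that width was 4 to 5 kb, a peak was missing from TFAM-sh1 in 3.33% (2.30 to 4.64) of regions, from TFAM-sh2 in 6.11% (4.61 to 7.92) and from shNT in 2.83% (1.90 to 4.04). At 7 to 8 kb it was missing from TFAM-sh1 in 15% (7.10 to 26.6), from TFAM-sh2 in 28.3% (17.5 to 41.4) and from shNT in 13.0% (6.14 to 23.3), and for TFAM-sh1 and shNT these intervals hold the values at 1 to 2 kb. KMT5A, the H4K20 methyltransferase, had 8490 bp in TFAM-sh2 and 8434 bp in shNT with no peak in TFAM-sh1. PTGES3, a co-chaperone of HSP90, had 7991 bp in TFAM-sh1 and 8142 bp in TFAM-sh2 with no peak in shNT. The absence of a peak there does not show that the mark was absent.

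The authors' peak score moved with width as well. Within each list the median score percentile was highest for peaks of 3 to 4 kb, at 75.5 in TFAM-sh1, 76.6 in TFAM-sh2 and 76.5 in shNT. It was 14.4 in TFAM-sh1, 21.3 in TFAM-sh2 and 13.0 in shNT for peaks of 8 kb or more, whose highest score was 228.75 in TFAM-sh1, 178.86 in TFAM-sh2 and 125.05 in shNT, while the lowest score in any list was 50. The domains had a median percentile of 58.3 in TFAM-sh1, 61.3 in TFAM-sh2 and 58.1 in shNT, below the 4 to 5 kb regions with 73.7 in TFAM-sh1, 74.7 in TFAM-sh2 and 73.8 in shNT. Peaks below 1 kb had median percentiles of 13.9 in TFAM-sh1, 15.4 in TFAM-sh2 and 13.8 in shNT. Low scores were thus not particular to wide peaks. The widest peaks scored near the lowest score listed, and the part this has in which broad regions are listed was not tested.

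**Figure D5:**
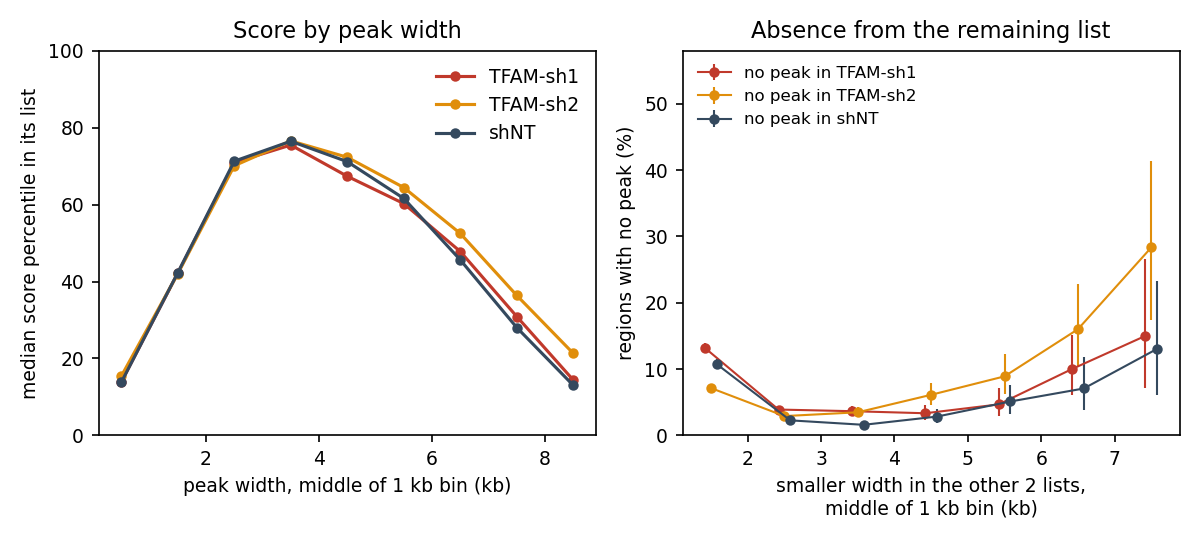
Score and absence by width. The left panel gives the median score percentile within each list by peak width in bins of 1 kb; the right panel gives the share of regions with no peak in 1 list by the smaller width in the other 2, with exact 95% intervals, for bins with at least 20 regions. Score percentiles are highest at 3 to 4 kb and low both below 1 kb and at 8 kb and above. Absence is high at 1 to 2 kb and at 7 to 8 kb, with wide intervals at 7 to 8 kb.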

How the data were processed

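H3K27ac ChIP-seq peak lists of 3 K562 libraries were used, 1 for each shRNA. Per the labels' protocols, libraries were made with a NEBNext kit and sequenced on a NextSeq500, and only reads aligned uniquely to hg19 were retained. Abcam ab4729 served as antibody. Bowtie 0.12.7 and Picard are named, per the submitters' processing notes. No source used here states the peak caller's settings, how the input entered or the read depth. The deposited lists hold, per peak, other values (start and end) and a score made by the authors, from which a percentile within its list was computed. Lists differ in the number of peaks, and an absent peak can reflect the threshold of the caller.

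Peaks were merged across lists at 1 bp of overlap, and the widest peak of each list stood for its width and edges. Start sites were those of canonical transcripts in GENCODE release 44 on GRCh37, the sequence of hg19. Edges were read 500 bp inward and outward. Sequences came from GRCh37 and, for microRNAs, from RefSeq. The text names the widest domains, those nearest the threshold, up to 4 members of each gene list, those with the largest width ratios in the same direction in both hairpins, those with no start site, the most start sites or microRNAs, the best shared, and regions with no peak in 1 list; some genes that this rule or the lists name are not reported here. The members and lists were chosen with earlier results of these data known. The code was tested on simulated data. Alternatives were other minimum widths, overlaps, lists, start sites and edges. Repeat content at the edges was not analysed here. Software was pandas 2.3.3, numpy 2.4.6 and SciPy 1.17.1 under Python 3.11.15, with figures by matplotlib 3.10.9.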

Additional observations from a re-analysis of the deposited data

How the results depend on the processing

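Of 90 values recomputed under 12 alternatives, 70 stayed within the interval of the reported value or, for the number of domains, within 1.5 times it. The number of domains was 1156 at a minimum width of 4000 bp, 125 at 6000 bp, 698 with the rule on both hairpin lists and 686 with it on shNT and TFAM-sh2. At 6000 bp, the peak reached farther downstream in 61.5%, TFAM-sh1 was wider than shNT in 60.8%, TFAM-sh2 in 64%, and the median G+C was 50.3%. With the rule on both hairpin lists, TFAM-sh1 was wider in 69.98% and TFAM-sh2 in 73.05%; edges lay farther out downstream in 63.04% for TFAM-sh1 and 66.8% for TFAM-sh2 and upstream in 67.7% for TFAM-sh1 and 58.1% for TFAM-sh2, and G+C was 50.1%. With it on shNT and TFAM-sh2, TFAM-sh1 was wider in 36.2%, its edges lay farther out downstream in 35.03% and, reversed in direction, upstream in 46.7%, and G+C was 47.02%. With it on shNT and TFAM-sh1, TFAM-sh2 was wider in 49.02%, also reversed. A rule that leaves a list free lets that list be narrow, so the width shares follow from its construction. The edges are the ends of the same peaks, so the edge shares are not independent of that construction. The cause of the other changes was not tested. The share of domains with a coding start site ran from 64.7% to 72.3% under all alternatives.

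No paired analysis was possible because each condition had 1 library. The lack of replicates and of read depth limits every difference between libraries.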

Other observations

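The domains were spread unevenly over the chromosomes. Chromosome 6 held 42, 4.29% (3.11 to 5.75) of its regions with a peak in every list, and chromosome 19 held 40, 3.90% (2.80 to 5.27). Chromosome X held 4, 0.802% (0.219 to 2.04), chromosome 14 held 5, 0.975%, and the share over all chromosomes was 2.53%. The chromosomes were singled out after their values were seen, and their copy number in K562 was not analysed here.

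A few domains lay next to each other. Of 403 pairs of neighbours on the same chromosome, 9 lay within 20 kb and 32 within 100 kb. The closest pair was CDKN1B (chr12:12867070-12873438) and a domain 692 bp farther on (chr12:12874131-12880385). A pair upstream of JARID2, which encodes a cofactor of the Polycomb complex PRC2, was 877 bp apart, and 2 further domains lay at its start site (chr6:15243064-15250429) and 50302 bp inside it. HNRNPF, JUND, ZMYND8, SPEN and ACTB each had 2 domains with a gap of at most 17500 bp.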
